A study of Mus musculus with 33 samples.

Results

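The kidney epithelial genes described here are 10 genes that tubule cells of the nephron use and T cells are not known for, and they were followed in regulatory T cells (Tregs) taken from grafts that lay on the kidney. They were Kap, Lrp2, Slc34a1, Miox and Aqp1 of the proximal tubule, Umod and Slc12a1 of the thick ascending limb, Aqp2 of the collecting duct, and Cdh16 and Fxyd2, which several segments share. They were picked by symbol, as 10 of 31054 genes in the count files, with their graft values already known, so their levels in graft Tregs are given as a description with no test. The label of a kidney epithelial signal held for Kap in all 3 graft libraries and in part for Fxyd2. It did not hold for the other 8 genes, which had no more than 8 counts in any graft library and stood at the level of the other cells by the counts used here, although for Umod reads of graft library 1 that overlap an antisense gene could not be assigned.

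The filtrate of the glomerulus passes first through the proximal tubule, where brush border transporters and endocytic receptors take back most of the phosphate, glucose, amino acids and filtered protein. The thick ascending limb then takes up salt through the cotransporter encoded by Slc12a1 and secretes uromodulin, and the collecting duct takes up water through aquaporin-2. Kap, the kidney androgen-regulated protein, is a small secreted protein of mouse proximal tubule cells that is known for its response to testosterone.

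All mice were DEREG mice, which carry a diphtheria toxin receptor fused to EGFP under the Foxp3 promoter, so that GFP marks Tregs. Tolerant mice had received 4000 islet equivalents of porcine neonatal islet cell clusters (NICC) under the kidney capsule with CTLA4-Fc and the anti-CD154 antibody MR-1, each at 500 µg per mouse and dose, and were studied at day 100 after transplantation, whereas naive mice had no graft and no treatment. Each of the 11 groups had 3 libraries: CD4+GFP+ graft Tregs, the SP/CD127hi and SP/CD127–/lo Tregs, CD4+GFP– T cells and CD45+CD4– cells of tolerant spleen (SP), the DLN/CD127hi and DLN/CD127–/lo Tregs of the lymph node that drains the kidney (DLN), split like the splenic ones by CD127, the interleukin-7 receptor alpha chain, and, from naive mice, SP/naive Tregs, DLN/naive Tregs and the same pair of GFP– fractions of spleen. The methods describe every library as a pool of several mice, but list too few naive mice for separate pools, so the libraries of a naive group cannot all come from different animals. For the graft libraries the graft was lifted off the kidney, flushed and ground through a strainer before the sort for CD4 and GFP. The tolerant mice and the naive mice used for spleen were male and the naive mice used for lymph nodes were female, so that tolerance and sex cannot be told apart between the DLN groups.

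The sequence upstream of Kap is shown because Kap carried most of the member reads in graft libraries 1 and 2. It is the RefSeq sequence of GRCm38.p6, chr6:133853668-133853917 on the minus strand, 250 bases that end just before the start site, with the TATA box motif TATAAAA in capitals. RefSeq places the start site at 133853667, 95 bases inside the gene as GENCODE draws it, so the last part of this stretch lies within the GENCODE gene.

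Kap: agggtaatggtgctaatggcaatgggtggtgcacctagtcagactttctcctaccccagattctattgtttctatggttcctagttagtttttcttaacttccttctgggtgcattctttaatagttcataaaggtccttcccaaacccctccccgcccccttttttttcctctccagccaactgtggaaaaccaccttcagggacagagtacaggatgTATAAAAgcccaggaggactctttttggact

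TATAAAA began 31 bases before the start site. Promoter windows from 250 bases before to 50 bases after the start were found for 8 of the 10 members and for 32851 promoters in all, and were searched on both strands. TATAAAA lay in 5.48% of all promoters and, among the members, in that of Kap alone. The full androgen response element (a pair of inverted half-sites) lay in 0.00913% of all promoters and in none of the 8, and its half-site AGAACA lay in 19% of all and in those of Slc34a1 and Aqp2. CAAAGTCCA, a site of HNF4, lay in 0.475% of all promoters and in none of the 8.

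The spleen and graft libraries had 2550698 to 4615283 counts on genes and the DLN libraries 844039 to 1935323, so that 1 read stood for 0.212 to 0.392 CPM (counts scaled to a common library size) in the former and for 0.545 to 1.04 CPM in the latter. The DLN libraries were sequenced on another instrument (MiSeq) than the spleen and graft libraries (NextSeq 500), and tissue and sequencer cannot be told apart. No pair of libraries held identical values. Foxp3 had 1953, 2185 and 2255 counts in graft libraries 1, 2 and 3, and the summed level of 7 Treg genes was 9352 to 17318 CPM there and 5659 to 19705 CPM in the 18 other Treg libraries, so the graft libraries carried the Treg label. The share of counts on the 13 mitochondrially encoded genes was 4.33% to 6.74% in graft libraries and 0.979% to 4.35% in the other 30, and its part in the values below was not tested. In bulk libraries such as these, fewer cells of a type and less RNA per cell cannot be told apart.

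Kap (ENSMUSG00000032758, chromosome 6 from 133849851 to 133853762, minus strand, GRCm38) had 422, 3232 and 45 counts in graft libraries 1, 2 and 3, with exact Poisson 95% intervals of 383 to 464, 3122 to 3345 and 32.8 to 60.2 that cover counting error only. The other 30 libraries held 3 Kap reads in all, 1 each in replicate 3 of SP/CD127hi Tregs and replicates 1 and 2 of DLN/CD127–/lo Tregs. Kap was thus read in every graft library and near 0 elsewhere, with no overlap between the graft and any other group. Every graft library was above every other library for 0.075% of all tested genes, and nothing is read from this for Kap, which was chosen for it. The 27 libraries without a Kap read allow up to 3 counts each by the one-sided limit used here for a count of 0, and 3.69 by the two-sided Poisson interval. On the CPM scale Kap had 114, 887 and 13.4 in the graft libraries, a mean of 338 ± 478 (SD, n = 3), and no more than 0.996 in any other library. Graft library 2 set that mean, which was 63.8 CPM without it. DLN/CD127–/lo and SP/CD127hi Tregs came next in the order of group means with 0.514 ± 0.499 and 0.0965 ± 0.167 CPM, levels of single reads, and the other 8 groups had none.

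The other proximal tubule members did not share this pattern. Lrp2 encodes megalin, the endocytic receptor of the brush border, and had 2, 4 and 5 counts in graft libraries 1, 2 and 3. It was read in 24 of the other 30 libraries with up to 9 counts, and graft Tregs ranked 8 of 11 groups by mean CPM. Slc34a1, the sodium phosphate cotransporter NaPi-IIa, had 0, 2 and 3 counts in the graft libraries. Its highest count, 31, stood in replicate 2 of tolerant CD4+GFP– T cells, a library with 7.72 CPM in a group whose other replicates had no read. Miox, the myo-inositol oxygenase of the proximal tubule, had 2, 5 and 0 counts in the graft and no more than 2 in any other library. Aqp1, the water channel of the proximal tubule and thin limb, had a single read in graft library 3 and 10 reads in 9 of the other libraries. The graft values of these 4 genes lay within the range of the other groups on the CPM scale.

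The thick ascending limb members were also near the limit of detection by the counts used here. Umod, which encodes uromodulin, had 5, 1 and 0 counts in graft libraries 1, 2 and 3 and up to 3 in any other library. Slc12a1, the sodium potassium chloride cotransporter NKCC2, had 0, 1 and 6 counts in the graft and up to 4 elsewhere. The value of Umod depended on how overlapping genes were counted. Exons of Umod (ENSMUSG00000030963, chromosome 7 from 119462711 to 119479282, minus strand) share 539 bases with exons of Gm44588 on the opposite strand, in the stretches from 119462821 to 119463118, from 119471383 to 119471476 and from 119472332 to 119472478, and a read there is set aside as ambiguous when both strands are counted together. With the single-strand columns summed, graft library 1 had 85 reads for Umod in place of 5, whereas graft library 2 had 1 and graft library 3 had 2, and the highest other library had 3. The mean in graft Tregs moved from 0.543 to 7.96 CPM. The kit does not keep the strand, so these reads cannot be assigned to Umod or to its antisense neighbour. With both strands counted together, Gm44588 had 0 reads in graft libraries 1, 2 and 3, where Umod had 5, 1 and 0. Slc34a1 and Slc12a1 also have an antisense neighbour, and the same change of column moved neither of them in the graft libraries.

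Aqp2, the vasopressin-regulated water channel of collecting duct principal cells, had no read in any graft library. A count of 0 allows up to 3 counts, or 0.812 to 0.894 CPM in the graft libraries. It had 4 reads in 4 of the other libraries and was the only member below the filter of 1 CPM in 1 library. Cdh16, the kidney-specific cadherin that tubule cells of several segments carry, had 0, 8 and 1 counts in the graft libraries and was read in 16 of the other 30 with up to 4 counts.

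Fxyd2 (ENSMUSG00000059412, chromosome 9 from 45399669 to 45410278, plus strand), the gamma subunit that tunes the sodium pump of the tubule, had 62, 279 and 97 counts in graft libraries 1, 2 and 3. These are 16.8, 76.6 and 28.9 CPM, a mean of 40.7 ± 31.6 (SD, n = 3), or 22.8 CPM without graft library 2. All graft libraries were above every spleen library, of which the highest, replicate 3 of naive CD45+CD4– cells, had 3.54 CPM. The DLN libraries overlapped with the graft. DLN/CD127hi Tregs had 42, 49 and 1 counts, or 40.9, 38.6 and 1.04 CPM, and replicate 2 of DLN/CD127–/lo Tregs had 42 counts, or 41.8 CPM, beside 3 and 0 in its other replicates. By group mean, graft Tregs stood before DLN/CD127hi Tregs with 26.8 ± 22.4 and DLN/CD127–/lo Tregs with 14.5 ± 23.7 CPM, and these neighbours did not differ beyond their spread. DLN/naive Tregs had 0.470 ± 0.407 CPM. Fxyd2 was therefore not restricted to the graft in these libraries.

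**Figure D1:**
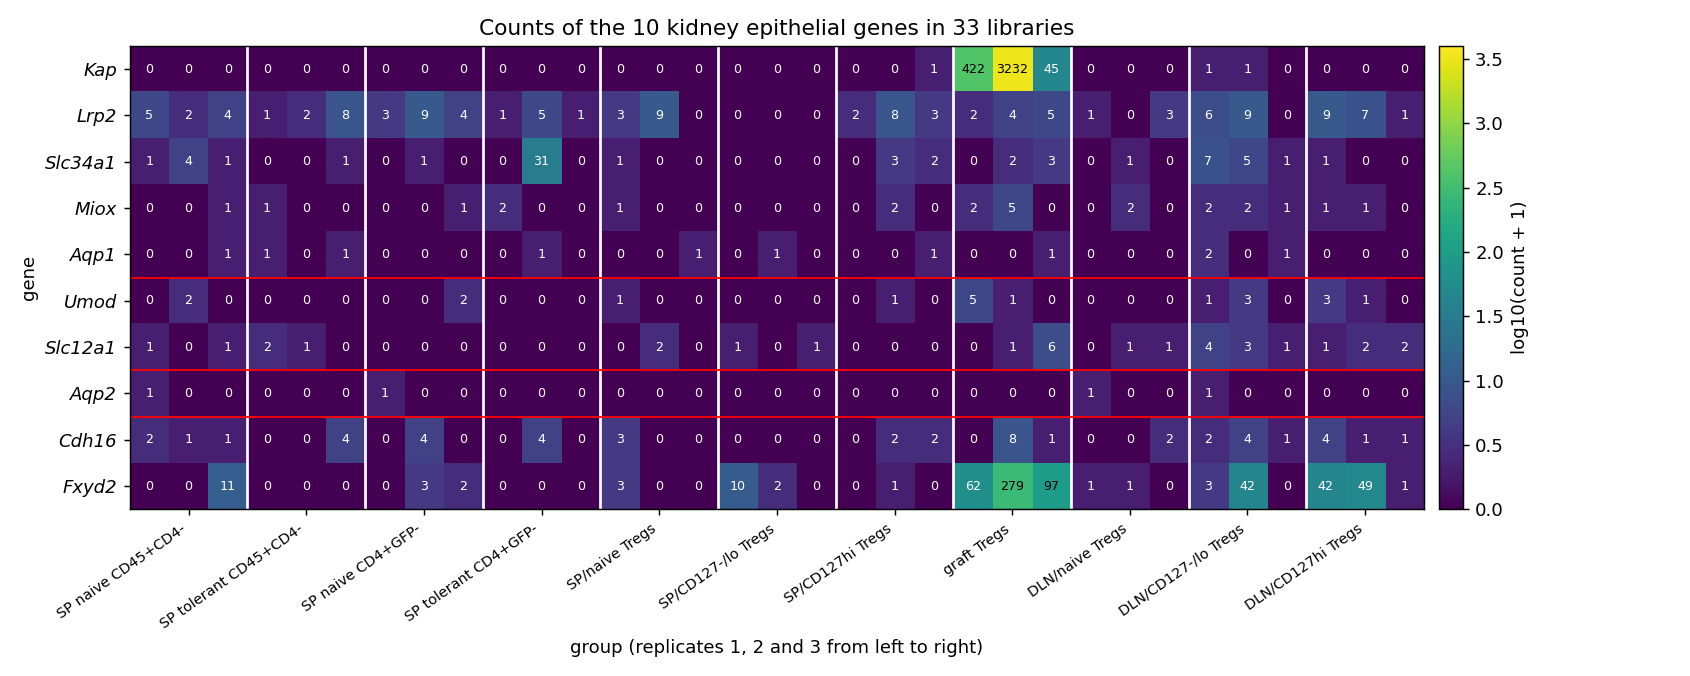
Counts of the 10 kidney epithelial genes (rows) in each of the 33 libraries (columns, 3 replicates per group between white lines). The number in each cell is the count and the colour is log10(count + 1). Red lines part the segments, from the top proximal tubule, thick ascending limb, collecting duct and genes of several segments. Kap is read almost only in the 3 graft libraries (422, 3232 and 45 counts) and Fxyd2 also in DLN libraries. The other rows are low, apart from 31 counts of Slc34a1 in replicate 2 of tolerant CD4+GFP– T cells.

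**Figure D2:**
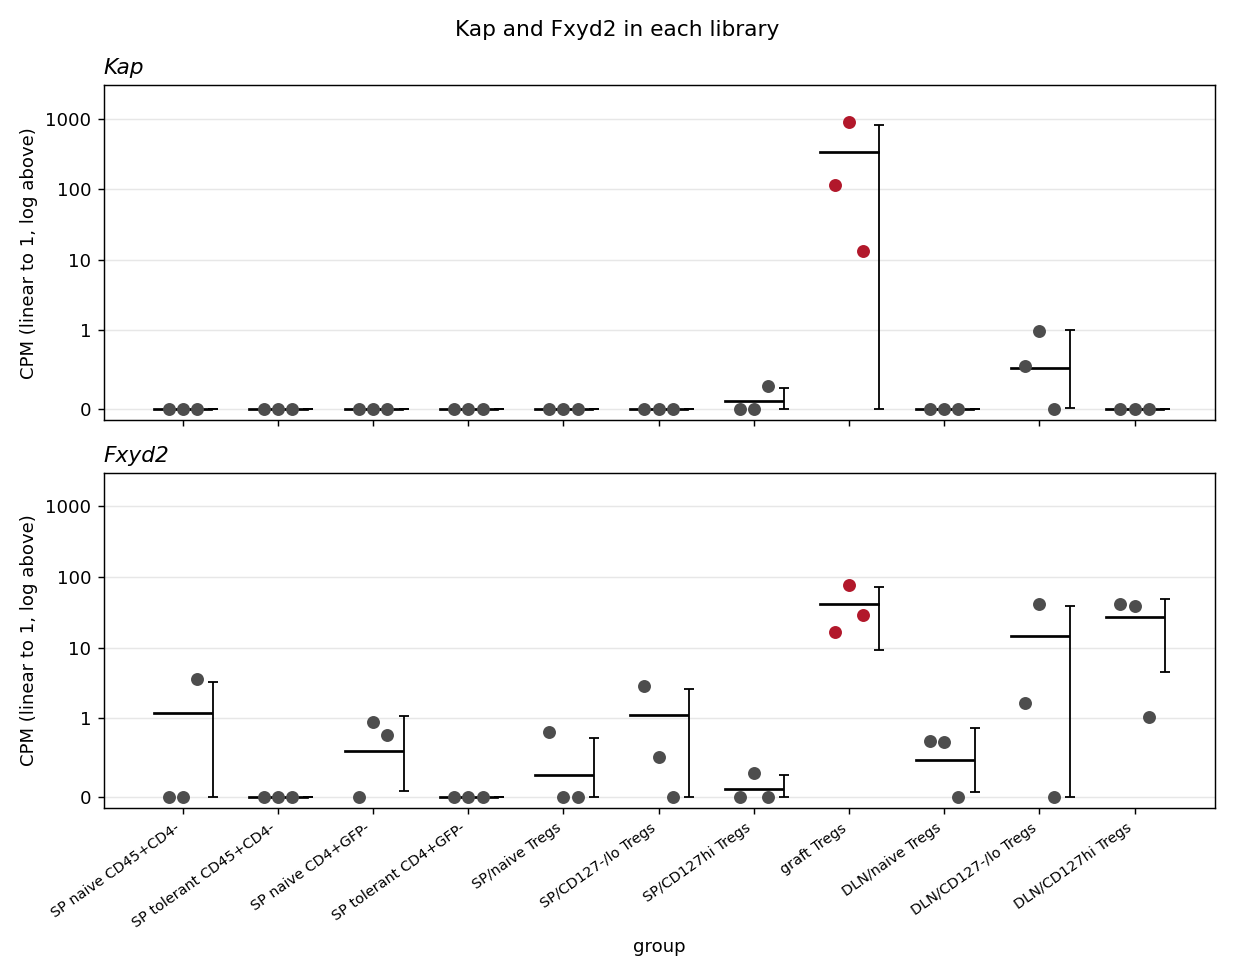
Level of Kap (top) and Fxyd2 (bottom) in CPM by group, on an axis that is linear up to 1 CPM and logarithmic above. Points are libraries (replicates 1, 2 and 3 from left to right, graft Tregs in red), horizontal lines are means and error bars are SD (n = 3), drawn down to 0 where the SD exceeds the mean. The graft libraries lie above all others for Kap and within the range of the DLN libraries for 2 of the 3 Fxyd2 values.

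The members' reads were made up differently in each graft library. Kap and Fxyd2 together held 98.2%, 99.4% and 89.9% of the member counts in graft libraries 1, 2 and 3, out of 493, 3532 and 158 counts. Kap alone held 85.6% (Wilson 95% interval 82.2% to 88.4%) in library 1 and 91.5% (90.5% to 92.4%) in library 2, but 28.5% (22.02% to 35.96%) in library 3, where Fxyd2 held 61.4% (53.6% to 68.6%). There were 6.81 Kap reads for each Fxyd2 read in library 1, 11.6 in library 2 and 0.464 in library 3. The counting intervals of the Kap share in library 3 and in the other graft libraries do not meet. Per kilobase of exon, the mean graft level of Kap was 478 CPM and that of Fxyd2 10.2 CPM, and Miox came next with 0.386 CPM. The thick ascending limb genes held 1.01%, 0.0566% and 3.80% of the member counts, or 14.8%, 0.0566% and 5% with the single-strand columns summed, where the uncertain reads of Umod enter. All 10 genes together took 0.0120%, 0.0849% and 0.00443% of the counts on genes in graft libraries 1, 2 and 3, and from 2.6e-05% to 0.00817% in the other libraries.

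Without Kap and Fxyd2, the remaining 8 members summed to 2.44, 5.76 and 4.77 CPM in graft libraries 1, 2 and 3. The other 30 libraries ranged from 0.252 to 25.9 CPM with a median of 2.85 CPM. The graft libraries thus lay inside the range of the rest. Each of the 8 had its highest group mean in a DLN group, and 5 of them (Slc34a1, Miox, Aqp1, Slc12a1 and Cdh16) in DLN/CD127–/lo Tregs. A DLN group also had the highest mean for 50.6% of all 25347 genes tested, and for 70.4% of the 11721 whose total of 4 to 117 counts was in the range of these members. DLN/CD127–/lo Tregs had the highest mean for 23.8% and 37% of these genes. Among SP/CD127–/lo Tregs, each library held a single read of the 8 genes.

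**Figure D3:**
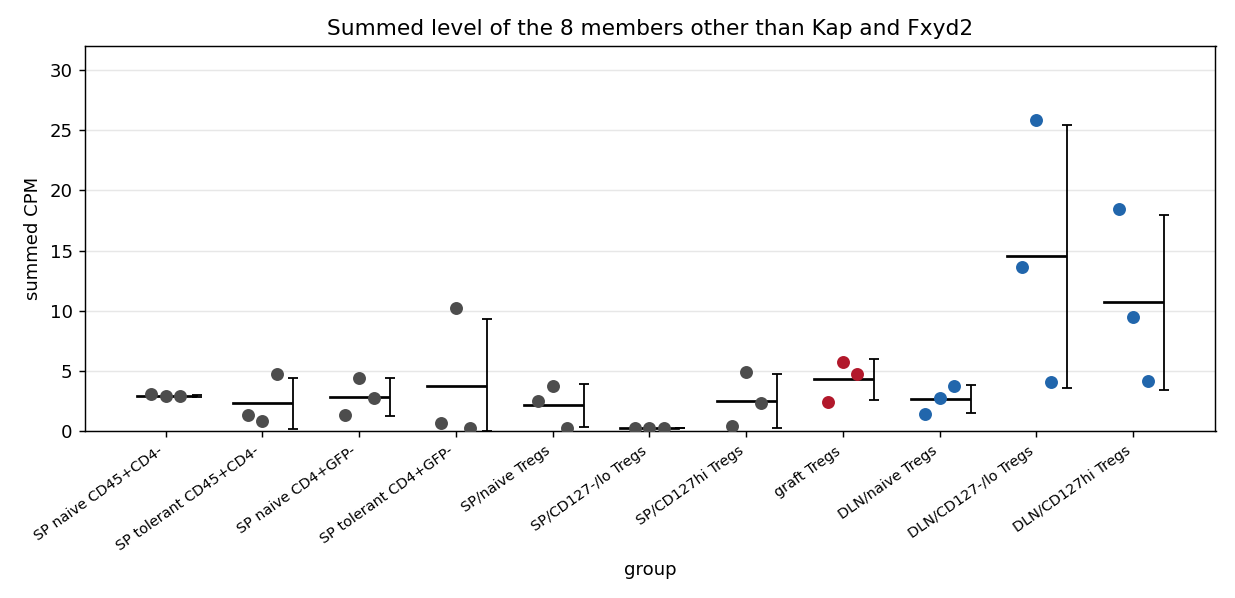
Summed level in CPM of the 8 members other than Kap and Fxyd2, by group. Points are libraries (graft Tregs in red, DLN groups in blue, spleen groups in grey), horizontal lines are means and error bars are SD (n = 3), drawn down to 0 where the SD exceeds the mean. The graft libraries sit between 2.44 and 5.76 CPM, below the highest DLN libraries.

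Tolerant and naive cells outside the graft were compared with the quasi-likelihood test of edgeR over 25347 genes (p-values adjusted by Benjamini and Hochberg's method), for the 9 members that passed the filter. None of the 54 tests was called at an adjusted p of 0.05. The shares of all tested genes called in either direction were 0.0197% for SP/CD127hi against SP/naive Tregs, 0.071% for SP/CD127–/lo against SP/naive Tregs, 0.951% for DLN/CD127hi and 0.355% for DLN/CD127–/lo against DLN/naive Tregs, 0.107% for CD4+GFP– T cells and 0.0355% for CD45+CD4– cells, and against such shares 0 of 9 genes in each comparison is no result about the members. An unadjusted p below 0.05 was reached in 5 of the 54 tests (9.26%), against 6.91% of the tests of all genes in the same 6 comparisons. The lowest adjusted p was 0.258, for Fxyd2 in DLN/CD127hi against DLN/naive Tregs, whose counts were 42, 49 and 1 against 1, 1 and 0. The p-values measure only the spread between these libraries, which in the naive groups cannot all come from different mice and may be technical.

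A wider list of 81 kidney genes, none of them a member, was examined by segment in graft Tregs. The list was chosen with earlier results of these data known. Its shares are therefore set beside those of all genes as a description, and no enrichment is read from them. None of the 79 that passed the filter was called higher or lower than in SP/naive, SP/CD127hi or SP/CD127–/lo Tregs. The shares of all tested genes called higher were 0.075%, 0.0395% and 0.0552% in these comparisons, which share the graft libraries, and the shares called lower were 0.0552%, 0.0631% and 0.0276%. Against such shares 0 of 79 genes is no result about the list. Ttc36 and Hao2 passed the filter only through a graft library and so had to be higher there. Of the other 77, 10, 10 and 17 were higher at an unadjusted p below 0.05, or 13%, 13% and 22.1%, against 2.42%, 3.27% and 3.21% of all genes that passed the filter outside the graft, and 1, 2 and 2 were lower. The likelihood ratio test called Akr1c21 alone in each comparison (adjusted p = 0.0436, 0.0322 and 0.0468), where it called 0.0197%, 0.0276% and 0.0316% of all genes higher. DESeq2 called none against SP/naive and SP/CD127hi Tregs and Slc12a3 and Gpx3 against SP/CD127–/lo Tregs (adjusted p = 0.031 and 0.0127). In the 3 comparisons it called 0.114%, 0.211% and 0.235% of all genes with a p higher. The graft mean was the highest of the 11 groups for 15 of the 77, of which 9 were among 33 proximal tubule genes, against 6.36% of all genes that passed the filter outside the graft. The graft libraries held 3 reads or fewer in all for 45 of the 81, and none for 26.

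The proximal tubule list, the longest, had the highest summed level of the 6 kidney lists in each graft library. Akr1c21, a hydroxysteroid dehydrogenase of a family with close relatives, had 3, 230 and 358 counts in graft libraries 1, 2 and 3 and 5 reads in all other libraries together. Gpx3, the secreted glutathione peroxidase that the kidney supplies to plasma, had 206, 77 and 13 counts in the graft and up to 23 elsewhere. These genes peaked in different graft libraries, Akr1c21 in library 3 and Gpx3 in library 1, while Kap peaked in library 2. The following 3 proximal tubule genes were chosen after their values were seen. Fbp1, a gluconeogenic enzyme, had 23, 110 and 1 counts in the graft and single reads elsewhere. Acsm2, a medium-chain acyl-CoA synthetase, had 2, 116 and 0 counts, and Slc22a6, the organic anion transporter OAT1, had 1, 69 and 1. Of the 35 proximal tubule genes, 16 had 3 reads or fewer in the graft libraries together and 7 had none, Slc22a8, Slc5a12 and Cyp2e1 among them. The summed proximal tubule list had 126, 217 and 145 CPM in the graft libraries, and 5.72 to 271 CPM with a median of 27.7 CPM in the 18 other Treg libraries. The ranges overlapped through 1 library, replicate 3 of DLN/CD127hi Tregs, in which Gatm, named after its values were seen, gave 185 of the 271 CPM. The next highest had 89.8 CPM. Single genes carried graft libraries as well, and Akr1c21 gave 107 of the 145 CPM of library 3. With the highest gene of the list left out of each library, the sums were 70.1, 154 and 38.1 CPM in the graft and 3.52 to 86.1 CPM in the other Treg libraries, so the ranges overlapped. Outside the Tregs, all 6 libraries of CD45+CD4– cells were above every graft library with 275 to 311 CPM, of which Napsa, an aspartic protease named after its values were seen, gave 241 in the highest, so that the summed list was not highest in the graft.

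Among genes of the later segments, Kcnj1, the potassium channel ROMK of the thick ascending limb, had 78, 2 and 2 counts in graft libraries 1, 2 and 3 and up to 10 elsewhere. Ppp1r1a, a phosphatase inhibitor, had 50, 0 and 0 and up to 40 elsewhere, where its highest level, 13.6 CPM, was close to the 13.5 CPM of graft library 1. Slc12a3, the thiazide-sensitive cotransporter of the distal convoluted tubule, had 94, 2 and 1 counts, and up to 43 in another library. S100g, calbindin-D9k, was read in all graft libraries with 66, 31 and 87 counts, and also in 26 of the other 30 with up to 67. Ptger3, a prostaglandin receptor, had 0, 0 and 49 counts with up to 19 elsewhere, and Cldn10, a claudin, had 0, 11 and 1 with up to 175 elsewhere, both of the thick limb list and named after their values were seen. The highest graft library was thus library 1 for Kcnj1, Ppp1r1a and Slc12a3, library 2 for Cldn10 and library 3 for S100g and Ptger3, as for the member Slc12a1. In the collecting duct list, Atp6v1g3, a proton pump subunit, had 0, 64 and 0 counts against up to 254 elsewhere. Avpr2, the vasopressin receptor, had 18, 0 and 0, which became 599, 117 and 318 with the single-strand columns summed, so that its own count is uncertain. No collecting duct gene had its highest mean in the graft. Of the podocyte genes, Synpo had 1, 52 and 0 and Nphs1 2, 6 and 15 counts, both below the highest other library. Of the genes that tubule segments share, the adhesion molecule gene Epcam had 326, 141 and 29 counts with up to 229 elsewhere. Krt8, Krt18, Pax2 and Cldn2 had no read in the graft libraries.

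Of the 27 wider kidney genes with 10 or more graft counts, 26 passed the filter outside the graft. Of these, 17 (65.4%) had at least 90% of their graft reads in 1 graft library, against 27.3% of the 7461 such genes with 10 to 591 graft counts. The highest library was graft library 1 for 10, library 2 for 10 and library 3 for 6 of the 26.

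**Figure D4:**
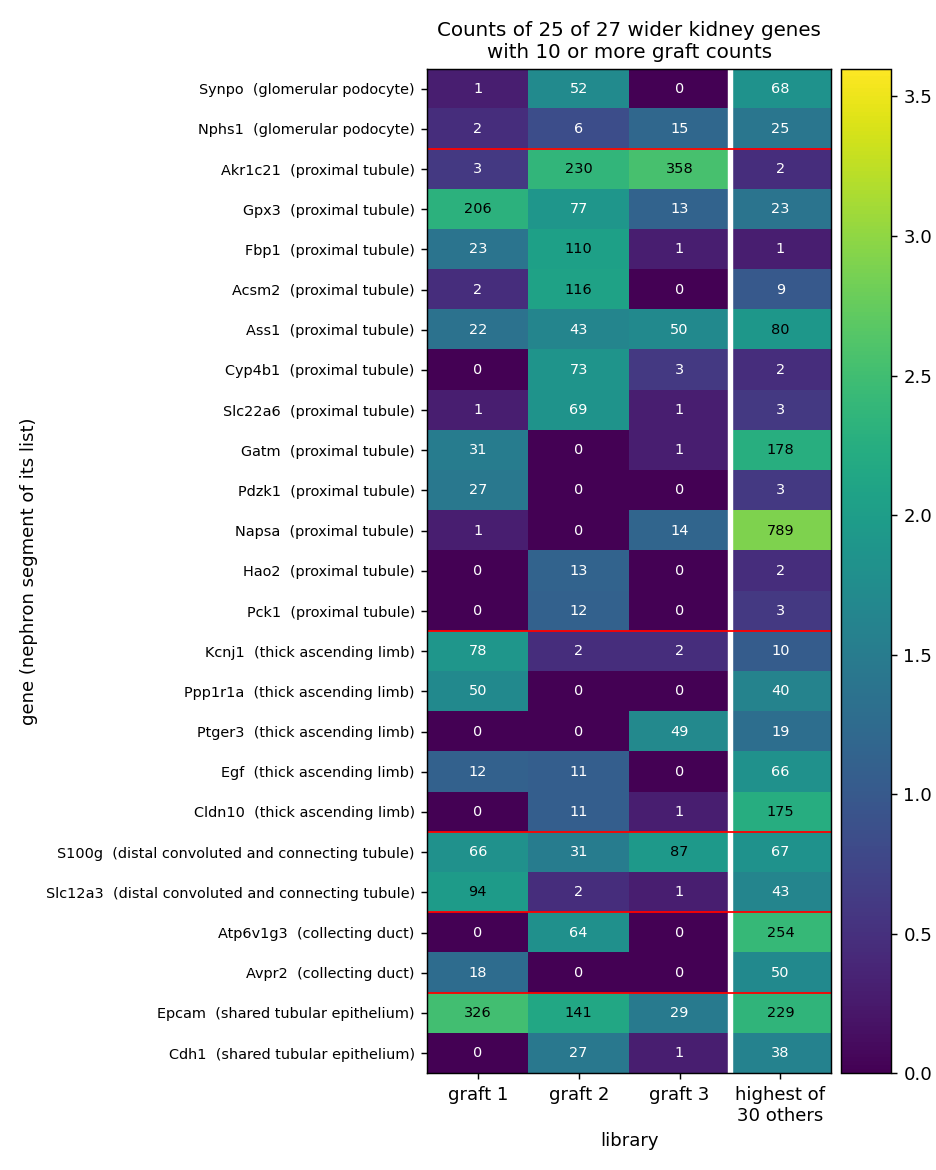
Counts of 25 of the 27 wider kidney genes with 10 or more graft counts (rows, grouped by segment between red lines) in graft libraries 1, 2 and 3 and, in the last column, in the highest of the 30 other libraries. The number in each cell is the count and the colour is log10(count + 1). Most rows have a high cell in a single graft library, as for Slc22a6 (1, 69 and 1 counts), while S100g (66, 31 and 87 counts) is read in all 3.

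Other cell types were read unevenly over the same libraries, and their part in the values above was not tested. Of 10 macrophage genes, Lyz2 had 243, 0 and 1432 counts in graft libraries 1, 2 and 3 and C1qb had 0, 0 and 143, while Csf1r and Adgre1 had none and 4 of the 10 were at 0. Their sum was 66.1, 0 and 475 CPM in the graft libraries, lowest in library 2 where Kap was highest, and 4.2 to 915 CPM in other Treg libraries. Of 8 endothelial genes, Pecam1 had 377, 175 and 649 counts and Ehd3 170, 94 and 25. The graft libraries held 3 reads or fewer in all for 6 of the 8, and none for 2, Cdh5 and Emcn. The 8 genes summed to 74.6 to 202 CPM in the graft libraries. This stood against 34.2 to 146 CPM in other Treg libraries and up to 271 CPM in naive CD4+GFP– T cells of spleen. The 7 fibroblast genes summed to 0.271 to 18.2 CPM, with Dcn at 0, 1 and 59 and Pdgfra at 0, 19 and 1 counts, against up to 37.8 CPM in other Treg libraries. The 6 B cell genes summed to 0.271 to 50.05 CPM, with Cd79b at 0, 0 and 74 counts, against 1.01 to 435 CPM in other Treg libraries. Of 5 erythroid genes, Hbb-bs and Alas2 had 9 counts each in library 1 and none in libraries 2 and 3, and the sum was up to 5.69 CPM.

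The genes whose level followed that of the summed members most closely over the 33 libraries were ranked by Pearson's r of log2(CPM + 1) among 8242 genes with at least 10 graft counts and a read in each graft library. They were Glyat (r = 0.872), Gria4 (0.798), Acy3 (0.785), Spink1 (0.785), Stab1 (0.770), Vil1 (0.729), Fbp1 (0.719) and Tarm1 (0.710). These values describe the libraries and have no p, since the graft libraries set them and all points share the same depths with the members. Glyat, a glycine acyltransferase of liver and kidney, had 8, 68 and 1 counts in graft libraries 1, 2 and 3 and no more than 2 elsewhere. Acy3, an aminoacylase of kidney, had 165, 108 and 127 counts and no more than 7 elsewhere. Spink1, a secreted trypsin inhibitor, had 98, 154 and 23 counts, with 2 reads in a single other library. Vil1, the brush border protein villin, had 25, 75 and 2 counts, and up to 14 elsewhere. Gria4, Stab1 and Tarm1 are not genes the tubule is known for. Gria4, a glutamate receptor subunit, had 1, 27 and 15 counts and up to 4 elsewhere. Stab1, a scavenger receptor of macrophages and endothelium, had 58, 121 and 1 counts and was read in 26 of the other 30 libraries with up to 27. Tarm1, a receptor of myeloid cells, had 1, 51 and 3 counts and up to 7 elsewhere. Acy3 and Spink1 resembled Kap in that each of the graft libraries was above every other library, whereas Glyat, Stab1, Vil1, Fbp1 and Tarm1 had 3 counts or fewer in library 3.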

How the data were processed

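RNA of sorted cells was amplified with the SMART-Seq v4 kit and made into Nextera XT libraries, which keep no strand. Per the labels and the study's methods, the authors trimmed reads with Trim Galore and mapped them by STAR to the mouse build mm10, extended by EGFP (versions not given in the sources used here). The deposited files hold raw gene counts in STAR's layout, although the methods name HTSeq. The counts of both strands together were used. Uniquely mapped reads that overlap more than 1 gene are left out of them.

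The members and gene lists were chosen with earlier results of these data known. Of 31054 features, 43 had no symbol in GENCODE vM21 (GRCm38), and all 155 genes of the lists were matched. CPM was scaled by TMM factors. edgeR 4.0.16 (quasi-likelihood test, a mean per group, 33 libraries, genes with at least 1 CPM in 1 library, Benjamini-Hochberg adjustment, threshold 0.05) was run in R 4.3.3 and tested on simulated data. DESeq2 1.42.0, the likelihood ratio test, RLE scaling, other filters, fewer libraries, a replicate block and each library left out were alternatives. With 3 against 3 libraries an exact permutation test of 1 value cannot go below p = 0.10, and none was used. Named beside the members were the called genes of each kidney list or, as none was called, its 2 genes with the most graft counts, 2 genes of each other list and the 8 genes most like the summed members. Genes named outside this rule are marked as such in the text or are defining markers (Foxp3, and markers without a read). Intervals and limits cover counting error only. Promoters are from RefSeq, GRCm38.p6. Some genes of the lists are counted but not reported by name here.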

Additional observations from a re-analysis of the deposited data

How the results depend on the processing

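No wider kidney gene was called higher in any of the 3 graft comparisons by the main test, and this was so under RLE scaling, both other filters, the spleen and graft libraries only, the 6 compared libraries only, the replicate block and every left-out library (range 0 to 0), as well as for the genes that passed the filter outside the graft, a count added after seeing the data. The main test called 0.0395% to 0.075% of all tested genes higher, and against such shares 0 of 79 genes is no result about the list. The likelihood ratio test called 1 in each comparison (0.0197% to 0.0316% of all genes), and DESeq2 called 2 against SP/CD127–/lo Tregs and 0 in the others (0.114% to 0.235% of all genes with a p). The cause was not tested. Member calls outside the graft were 0 under all alternatives run (left-out libraries 0 to 0), replicate block included. The summed level of the members in graft Tregs, 383 CPM, was 358 CPM with RLE factors, 338 CPM unscaled and 391 CPM with the single-strand columns summed, and ranged from 90.3 CPM without graft library 2 to 551 CPM without graft library 3, so that 1 library decides it. Among single members only Umod moved by more than the spread between replicates, to 7.96 CPM with the single-strand columns. Libraries with the same replicate number did not deviate together (r from -0.042 to 0.0269 in the graft comparisons), and the replicate block changed no call. At the depth of these libraries a gene with fewer than 3 reads cannot be told from one with none, and the spread over 3 pooled libraries limits every level given for the graft.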

Other observations

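Within the graft libraries, reads of the exocrine pancreas genes lay mostly in library 2, though not for every gene of the list. Prss2, a trypsinogen, had 2, 199 and 0 counts in graft libraries 1, 2 and 3, Cpb1, a procarboxypeptidase, had 6, 119 and 0, and Pnlip, the pancreatic lipase chosen here after its values were seen, had 38, 64 and 0. Elsewhere they had up to 76, 45 and 3 counts, and the highest group mean of Prss2 was in DLN/CD127hi Tregs. Cela1, also named after its values were seen, had 3, 0 and 0 counts against up to 143 elsewhere. Cpa1 and Amy2a5 had no read in the graft libraries. The 8 genes of the exocrine list summed to 13.5, 115 and 0 CPM in the graft libraries and to 1.74 to 58.4 CPM in the other Treg libraries. Of the 8, 4 had their highest group mean in the graft, against 6.36% of all genes that passed the filter outside the graft. None of the 7 tested was called in the graft comparisons. These called 0.0276% to 0.075% of all tested genes in each direction, and against such shares 0 of 7 is no result about the list. Of 13 islet hormone and secretory genes, 10 had no read in any graft library, Ins1, Ins2, Gcg and Sst among them, and Pcsk1 had 3, 0 and 1 counts and Pcsk2 1, 1 and 0. All reads had been aligned to the mouse genome, and reads of porcine origin were not analysed here.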
